A study of Homo sapiens with 8 samples.

Results

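Ponatinib is a small-molecule inhibitor of BCR-ABL that also acts on other tyrosine kinases, among them the FGF and PDGF receptors and SRC family kinases. The comparison described here sets 2 samples of LM2 cells given the drug at 1 µmol/L and collected after 6 h against 2 samples labelled with DMSO, the solvent, and so uses 4 of the 8 samples of the series. LM2 cells were derived from the triple negative human breast cancer line MDA-MB-231 for their spread to the lung, and all 4 samples came from this single line, grown in DMEM with serum and without any shRNA. The labels give no duration for the DMSO samples. They number the samples of a treatment as repeats without saying whether these were separate cultures, so that the p-values below measure the spread between these samples, which may be technical. The other 4 samples, 1 each of a scrambled shRNA, an ABL1 shRNA, an ABL2 shRNA and both shRNAs, were used only for a few values set side by side.

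The counts on genes summed to between 7568934 (Ponatinib replicate 2) and 11509379 (DMSO replicate 1), so that 3 counts, taken as the lowest reliable level, equalled 0.261 to 0.396 CPM, the unit of counts-per-million used for all levels. Mitochondrially encoded genes took 2.98% and 3.21% of the counts in the DMSO samples and 3.74% and 3.72% in the Ponatinib samples, and the part of this difference in the results was not tested. Of 10 markers of mesenchymal-like breast cancer lines, VIM had 23217 to 33084 counts and AXL 8018 to 13942, while CDH2 had 3 to 12, and the list summed to 6884 to 7267 CPM. Of 10 luminal or epithelial markers, ESR1 had 3 to 10 counts, PGR none and CDH1 at most 3, while KRT19 had 307 to 436, ERBB2 515 to 665, EPCAM 70 to 125 and GATA3 74 to 92, and that list summed to 110 to 134 CPM. A list of 9 blood cell markers summed to 0.90 to 1.91 CPM, with ITGAM at 0, and 9 markers of endothelium and stroma summed to 68.8 to 96.8 CPM, most of it COL1A1, with CDH5 at 0. In RNA from whole cultures, a loss of cells that express a gene and less RNA of it per cell cannot be told apart.

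A cell that runs short of an amino acid, or whose endoplasmic reticulum is overloaded, phosphorylates the initiation factor eIF2, which slows protein synthesis in general but favours translation of the transcription factor ATF4. ATF4, paired with C/EBP proteins, binds C/EBP-ATF response elements (CARE) at genes that make, import and charge amino acids, and at genes such as DDIT4 and SESN2 that restrain the growth kinase mTORC1. Growth signals act in the other direction on ribosome production, which draws on a large set of nucleolar genes, many of them bound at E-box sequences by MYC. These 2 programs, with the cell cycle, lipid and glucose metabolism, survival genes and secreted factors, are described in turn. "Rose" and "fell" are used only of genes whose p from the quasi-likelihood test of edgeR was under 0.05 after Benjamini-Hochberg adjustment, and log2 fold changes are Ponatinib over DMSO.

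Of 16031 genes tested, 2406 rose (15%) and 2511 fell (15.7%), and 448 rose by more than 2-fold (2.79%) and 326 fell by more than 2-fold (2.03%). The median log2 fold change of all genes tested was -0.0047. The gene lists below were chosen with earlier results of these data known, so a list's count is given beside these shares as a description, without a test of the list, and some genes stand in more than 1 list. Groups of 2 samples often do not overlap even without a difference. Where no overlap is stated for genes that rose or fell, it describes their values and adds nothing to the call.

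**Figure D1:**
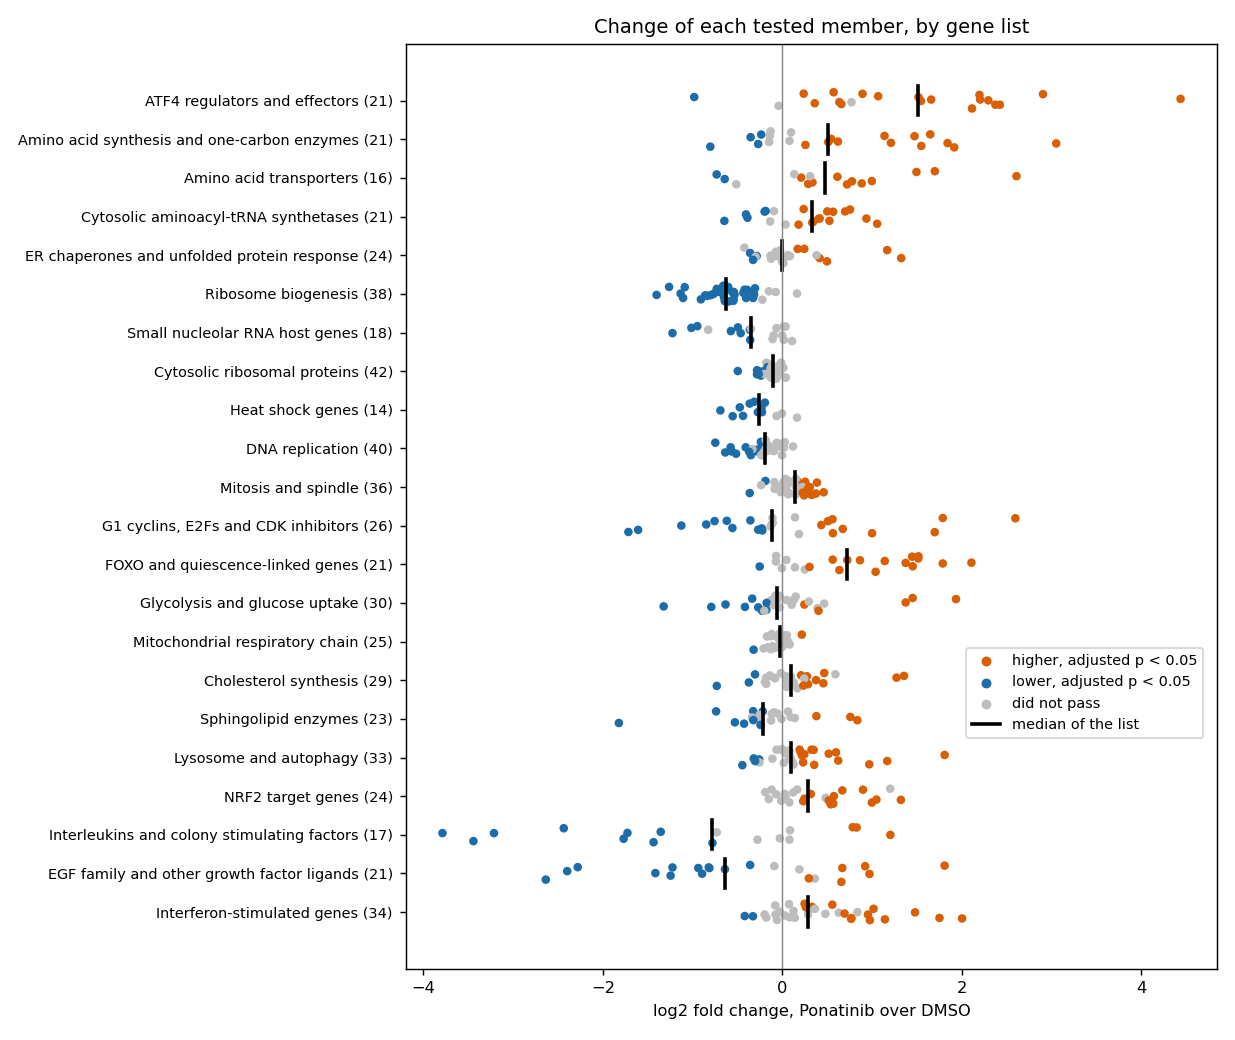
Log2 fold change of Ponatinib over DMSO (x axis) for every tested member of 22 gene lists (rows, number tested in brackets). Each point is a gene, orange if it rose, blue if it fell and grey if it did not pass, and the black bar is the list's median. The 4 amino acid lists at the top have medians from 0.33 to 1.52, ribosome biogenesis has a median of -0.62 and interleukins with colony stimulating factors one of -0.78.

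The CARE core was searched for in the promoters of the amino acid genes as the letters TGATGNAA on either strand, in RefSeq windows of 250 bases before to 50 after each start on GRCh38.p14. It was present in 19 of the 44 promoters given for list genes that rose (43.2%), in 2 of 18 for list genes tested that did not rise (11.1%) and in 2.8% of 10483 promoters of all genes tested. A match describes the letters and not a bound site. The windows of 8 of the genes that rose are shown. These genes were chosen because they hold the match, so sharing it follows from that choice. The windows are of enzymes of amino acid synthesis (ASNS, GOT1, BCAT1), tRNA synthetases (GARS1, AARS1), transcription factors (ATF3, CEBPG) and the glutathione-degrading CHAC1. Each runs 5′ to 3′ on the gene's strand with 25 bases on both sides and the match in capitals, and in CHAC1, GARS1, AARS1 and GOT1 the core lies on the opposite strand.
CHAC1 (chr15:40953237-40953294, + strand): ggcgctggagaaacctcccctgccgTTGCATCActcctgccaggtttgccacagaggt
ASNS (chr7:97872444-97872501, - strand): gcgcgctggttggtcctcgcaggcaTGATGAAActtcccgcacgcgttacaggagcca
ATF3 (chr1:212565191-212565248, + strand): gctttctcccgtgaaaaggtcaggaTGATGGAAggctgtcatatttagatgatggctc
GARS1 (chr7:30594820-30594877, + strand): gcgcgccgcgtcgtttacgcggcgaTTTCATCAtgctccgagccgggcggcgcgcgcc
AARS1 (chr16:70289661-70289718, - strand): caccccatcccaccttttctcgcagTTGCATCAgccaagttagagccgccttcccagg
CEBPG (chr19:33374046-33374103, + strand): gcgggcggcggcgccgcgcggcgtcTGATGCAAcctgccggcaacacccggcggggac
GOT1 (chr10:99430790-99430847, - strand): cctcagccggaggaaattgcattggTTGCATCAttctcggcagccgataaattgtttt
BCAT1 (chr12:24949117-24949174, - strand): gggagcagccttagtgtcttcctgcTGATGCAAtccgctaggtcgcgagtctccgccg

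A window was shown only if its match and the 25 bases on both sides lay before the start. All 8 matches are therefore upstream of the start in the RefSeq table, at least 26 bases away by this rule and up to 202 in CHAC1. The gene spans of GENCODE can begin further upstream. The windows of CHAC1, ASNS, GARS1 and CEBPG lie inside those spans, and that of AARS1 overlaps its span. The windows shown are of the largest rises that met the rule, and genes such as JDP2 and SLC1A4, which also held the core, were left out. Among genes that rose by more than 2-fold, 26 of 298 promoters (8.7%) held the core, against 6 of 184 (3.3%) for genes that fell by more than 2-fold. The AP-1 letters TGANTCA, which differ from the CARE core and overlapped a CARE match in 0 tested genes, were in 28 of 184 promoters (15.2%) of genes that fell by more than 2-fold, in 25 of 298 (8.4%) of those that rose and in 7.1% of all genes tested.

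The regulators and effectors of the ATF4 response were higher in Ponatinib. Of 22 listed genes 21 were tested, 18 rose, 12 of them by more than 2-fold, and 1 fell, with a median log2 fold change of 1.52. FGF21 was too low to test. Positions given here and below are of whole protein-coding genes in the GENCODE annotation of GRCh38. ATF4 itself, on chromosome 22 from 39519695 to 39522683, was at 378 and 393 normalized CPM in DMSO and 479 and 430 in Ponatinib, for a log2 fold change of 0.24 with a standard error of 0.06 (edgeR adjusted p = 0.012). The groups did not overlap, but the gene no longer passed without DMSO replicate 1 (0.21) or without DMSO replicate 2 (0.27). DDIT4, a stress-induced restrainer of mTORC1 on chromosome 10 from 72273919 to 72276036, was at 57.2 and 69.7 CPM in DMSO and 471 and 476 in Ponatinib, for a log2 fold change of 2.90 with a standard error of 0.08 (edgeR adjusted p = 4.8e-12). SESN2, a leucine sensor that also restrains mTORC1, went from 16.7 and 15.3 CPM to 82.3 and 84.1 (log2 fold change 2.37, edgeR adjusted p = 5.9e-11). In both restrainers the groups lay apart by much more than the replicates did. The DMSO samples of DDIT4 (57.2 and 69.7 CPM) were less tight than its Ponatinib samples (471 and 476).

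TRIB3, a pseudokinase that feeds back on ATF4, was at 28.1 and 26.6 CPM in DMSO and 134 and 135 in Ponatinib (log2 fold change 2.29, standard error 0.07, edgeR adjusted p = 1.6e-11). DDIT3, which encodes the ATF4 target CHOP, was at 23.6 and 21 CPM in DMSO and 77.7 and 62.3 in Ponatinib (1.66, edgeR adjusted p = 3.1e-08). CHAC1, which degrades glutathione and has a CARE core in its promoter, was at 7.88 and 10.0 CPM in DMSO and 42.8 and 38.4 in Ponatinib (2.20, edgeR adjusted p = 7.7e-09). Each of these 3 genes was higher in both Ponatinib samples than in either DMSO sample. JDP2, VLDLR, NUPR1 and KLHL24 rose with log2 fold changes of 2.20, 2.42, 1.54 and 1.52, and the CARE-binding partners CEBPG and CEBPB and the repressor ATF3 with 0.89, 0.63 and 1.07. Among secreted products of the list, GDF15, a stress hormone that acts on appetite, went from 11.2 and 11.7 CPM to 50.1 and 49.2 (2.11, edgeR adjusted p = 1.3e-09), and INHBE, an activin subunit, had 2 counts in each DMSO sample and 43 and 36 in the Ponatinib samples (edgeR log2 fold change 4.44, or by the ratio of counts 23.0-fold, 95% interval 8.63 to 86.4 for counting error only). The member that fell was PPP1R15A, whose product GADD34 restores eIF2 activity. It was at 280 and 276 CPM in DMSO and 144 and 137 in Ponatinib (log2 fold change -0.98, edgeR adjusted p = 1.7e-08). ATF5 (-0.04) and STC2 (0.77) did not pass (edgeR adjusted p = 0.76 and 0.060).

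**Figure D2:**
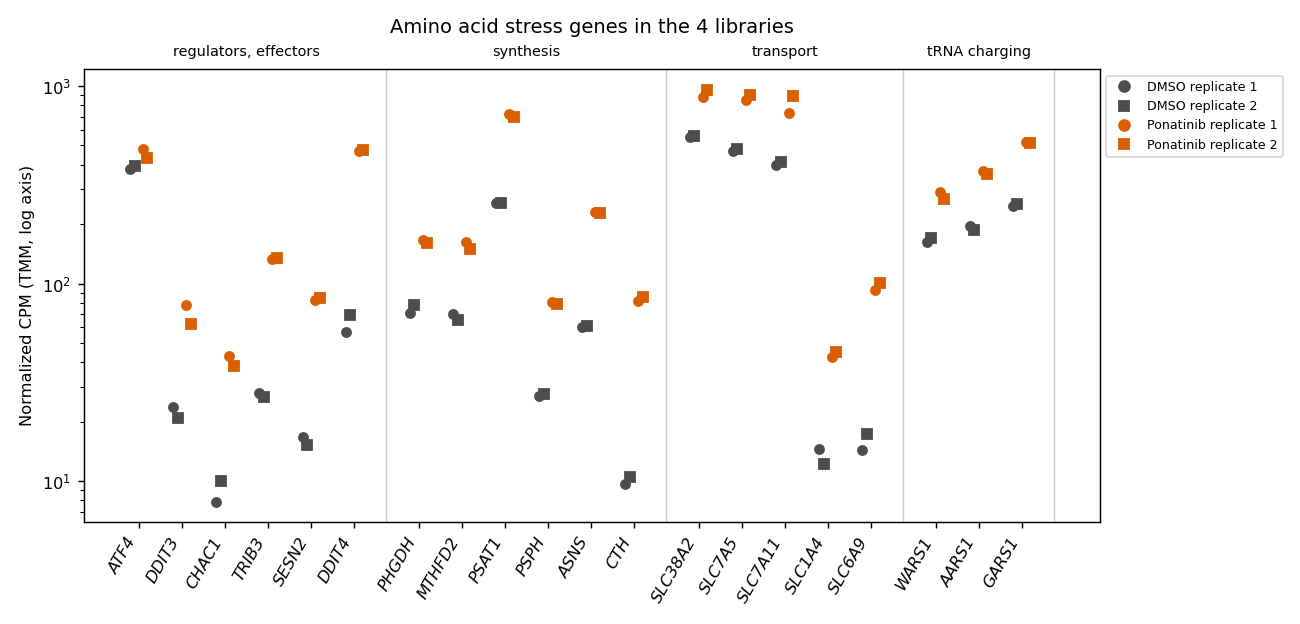
Normalized CPM (log axis) of 20 amino acid stress genes, grouped by role, in the 4 libraries, with DMSO in grey and Ponatinib in orange. The genes drawn were chosen among list members that rose, so their common direction follows from that choice. Members that fell, such as PPP1R15A, PYCR3, SLC36A1 and FARSA, are not drawn. The steps go from a small one for ATF4 (378 and 393 in DMSO against 479 and 430 in Ponatinib) to the largest for CTH (9.65 and 10.4 against 81.2 and 85.2).

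Of the enzymes that make amino acids and one-carbon units, 12 of 21 tested rose (57.1%), 8 of them by more than 2-fold, and 4 fell, with a median log2 fold change of 0.51. The largest change was of CTH, which makes cysteine from cystathionine and lies on chromosome 1 from 70411218 to 70439851. It was at 9.65 and 10.4 CPM in DMSO and 81.2 and 85.2 in Ponatinib, for a log2 fold change of 3.05 with a standard error of 0.10 (edgeR adjusted p = 1.4e-11). ASNS, the asparagine synthetase on chromosome 7 from 97851677 to 97872542, was at 60.5 and 60.9 CPM in DMSO and 229 and 228 in Ponatinib, for a log2 fold change of 1.91 with a standard error of 0.07 (edgeR adjusted p = 2.4e-11). For both enzymes the replicates lay close together and the groups far apart. All 3 steps of serine synthesis rose. PHGDH, the first step, had a log2 fold change of 1.14, PSAT1, the second, went from 255 and 257 CPM to 723 and 697 (1.47), and PSPH, the last, had 1.55 (edgeR adjusted p = 1.0e-08, 1.1e-10 and 2.2e-09). Mitochondrial MTHFD2, a folate enzyme, rose too (1.21), as did GPT2 (1.65) and GOT1 (0.62), which transfer amino groups, BCAT1 (0.51), which acts on branched-chain amino acids, and PCK2, the mitochondrial PEP carboxykinase (1.84). PYCR3, a proline synthesis enzyme, went the other way, with 19.7 and 21.5 CPM in DMSO against 11.1 and 12.6 in Ponatinib (-0.80, edgeR adjusted p = 0.00028). Pseudogene copies of 3 of these genes gained counts with them, ASNSP1 with a log2 fold change of 1.86, PSAT1P4 with 1.63 and MTHFD2P7 with 1.63, and the counting could have shared reads between a gene and its copies.

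Of 16 amino acid transporters tested, 11 rose (68.8%) and 2 fell. SLC6A9, the glycine carrier, was at 14.4 and 17.3 CPM in DMSO and 92.2 and 101 in Ponatinib, for a log2 fold change of 2.61 with a standard error of 0.10 (edgeR adjusted p = 5.9e-11). SLC1A4, a carrier of small neutral amino acids, had a log2 fold change of 1.70 and SLC43A1, a carrier of large neutral ones, 1.49. The cystine importer SLC7A11 rose from 398 and 413 CPM to 730 and 890 (1.00, edgeR adjusted p = 2.1e-07). SLC7A5, which imports leucine, and its partner chain SLC3A2 rose by less (0.88 and 0.61), as did the glutamine carriers SLC38A2 (0.72) and SLC38A1 (0.34). The lysosomal exporter SLC36A1 was at 44.7 and 52.0 CPM in DMSO and 28.0 and 30.3 in Ponatinib (-0.73, edgeR adjusted p = 5.2e-05). Of 21 genes for cytosolic tRNA charging and export, 13 rose (61.9%) and 5 fell. The highest change among them was of GARS1, which charges glycine, from 246 and 252 CPM to 518 and 517 (1.06, standard error 0.06, edgeR adjusted p = 4.2e-09), followed by AARS1 for alanine (0.94) and WARS1 for tryptophan (0.75). FARSA, a phenylalanine synthetase subunit, fell by 0.65 on the log2 scale and VARS1, for valine, by 0.41 (edgeR adjusted p = 4.1e-06 and 0.00014), so that the synthetases did not move as 1 block.

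The chaperone arm of the unfolded protein response moved less. Among 24 genes 6 rose and 3 fell, with a median of -0.01. HERPUD1, which serves degradation at the endoplasmic reticulum, went from 61.8 and 63.5 CPM to 156 and 158 (log2 fold change 1.32, edgeR adjusted p = 1.5e-09) and XBP1, a transcription factor of this response, from 51.0 and 57.5 to 125 and 118 (1.17, edgeR adjusted p = 2.1e-08). The chaperone HSPA5, or BiP, rose from 546 and 571 CPM to 785 and 791 (0.50, edgeR adjusted p = 1.0e-05). The stress genes of the cytosol gave no rise, since of 14 heat shock genes tested 0 rose and 11 fell, a count of 6 without DMSO replicate 1 and of 7 without DMSO replicate 2. Of these HSPA8, the constitutive HSP70, went from 2123 and 2022 CPM to 1302 and 1266 (-0.69, edgeR adjusted p = 2.8e-07). HSPA1A (-0.24) and DNAJB1 (-0.23) passed with all samples and did not pass without DMSO replicate 1 (-0.25 and -0.21) or without DMSO replicate 2 (-0.24 and -0.25). HSPA1A also did not pass with DESeq2's Wald test on all samples (-0.24).

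Genes of ribosome biogenesis were lower in Ponatinib. Of 38 listed genes, all tested, 34 fell (89.5%, against 15.7% of all genes tested), 0 rose and 5 fell by more than 2-fold, with a median log2 fold change of -0.62. RRS1, an assembly factor of the large subunit, was at 39.7 and 38.7 CPM in DMSO and 14.9 and 14.7 in Ponatinib, for a log2 fold change of -1.40 with a standard error of 0.10 (edgeR adjusted p = 1.1e-07). NIP7, which acts in pre-rRNA processing, was at 75.7 and 80.0 CPM in DMSO and 38.2 and 34.6 in Ponatinib (-1.09, edgeR adjusted p = 1.2e-07), and WDR43, a transcription-linked processing factor, at 88.9 and 81.9 against 39.0 and 40.6 (-1.11, edgeR adjusted p = 6.9e-08). The pairs of all 3 genes stood apart by far more than the replicates did. PPAN and NOP16 fell by 1.26 and 1.13 on the log2 scale. RNA polymerase I subunits fell by about as much as the list's median, with -0.56 for POLR1A and -0.55 for POLR1B, and so did the snoRNP proteins NOP56 (-0.66) and, by less, FBL (-0.32). NPM1, an abundant nucleolar chaperone, and UBTF, a polymerase I factor, did not pass (-0.07 and 0.16, edgeR adjusted p = 0.36 and 0.10), although NPM1 did without Ponatinib replicate 1 (-0.11) and UBTF without Ponatinib replicate 2 (0.24).

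The E-box letters CACGTG were in 12 of the 28 promoters given for ribosome biogenesis genes that fell (42.9%), against 12.4% of the promoters of all genes tested and 7.6% of those of genes that fell by more than 2-fold. They were in 6 of 44 promoters (13.6%) of the amino acid genes that rose. The CARE core was in 0 of the 32 promoters of the ribosome biogenesis list. The windows of DDX21, a nucleolar RNA helicase, and LYAR, a pre-rRNA processing factor, are shown as examples from the same RefSeq table and build, with the palindromic E-box in capitals and 25 bases on each side.
DDX21 (chr10:68956591-68956646, + strand): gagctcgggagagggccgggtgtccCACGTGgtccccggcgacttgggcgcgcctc
LYAR (chr4:4290055-4290110, - strand): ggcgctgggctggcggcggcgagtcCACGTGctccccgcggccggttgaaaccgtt

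DDX21 was at 549 and 523 CPM in DMSO and 301 and 328 in Ponatinib (log2 fold change -0.77, edgeR adjusted p = 3.3e-07), and LYAR at 121 and 114 against 91.0 and 68.8 (-0.54, edgeR adjusted p = 0.00060). MYC itself was at 171 and 179 CPM in DMSO and 96.5 and 97.6 in Ponatinib (-0.85, edgeR adjusted p = 1.5e-07).

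The structural proteins of the ribosome did not follow the assembly factors to the same extent. Of 42 cytosolic ribosomal protein genes 8 fell (19.0%, near the 15.7% of all genes tested) and 0 rose, with a median of -0.10. RPLP0 was at 1485 and 1422 CPM in DMSO and 1562 and 1415 in Ponatinib, and RPS6 at 940 and 916 against 944 and 816, so that the groups overlapped for both genes. RPLP0 passed as higher without Ponatinib replicate 2 (0.10) and RPS6 as lower without Ponatinib replicate 1 (-0.18). Of 18 small nucleolar RNA host genes tested, whose introns carry the guides of rRNA modification, 8 fell (44.4%) and 0 rose. SNHG15 went from 32.4 and 30.9 CPM to 15.4 and 11.2 (-1.22, edgeR adjusted p = 5.2e-06) and SNHG12 from 23.7 and 21.3 to 12.4 and 9.63 (-1.01, edgeR adjusted p = 6.5e-05). GAS5, another host gene, did not pass (-0.10, edgeR adjusted p = 0.43), except without Ponatinib replicate 1 (-0.23). The count of host genes that fell was 5 without DMSO replicate 1 and 14 without Ponatinib replicate 1, so it rests in part on single libraries. Among 16 initiation and elongation factors 3 rose (18.8%) and 5 fell (31.2%), with the cap-binding EIF4E at -0.36 and the elongation factor EEF2 at 0.02 (edgeR adjusted p = 0.0012 and 0.80).

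Genes that govern entry into the cell cycle changed in both directions. Of 26 G1 cyclins, E2Fs and CDK inhibitors tested, 9 rose (34.6%) and 11 fell (42.3%). CCND1, the growth-factor-dependent cyclin D1 on chromosome 11 from 69641156 to 69654474, was at 971 and 970 CPM in DMSO and 319 and 318 in Ponatinib, for a log2 fold change of -1.61 with a standard error of 0.06 (edgeR adjusted p = 4.6e-11). CCNE1 went from 15 and 12.3 CPM to 5.13 and 2.86 (-1.72, edgeR adjusted p = 2.7e-05) and CCNE2, the other cyclin E, from 26.6 and 25.7 to 11.9 and 12.1 (-1.13, edgeR adjusted p = 4.3e-06). These 3 cyclins, which drive cells from G1 into S phase, fell with no overlap of the groups. CCND2 moved opposite to CCND1, from 3.98 and 3.85 CPM to 22.8 and 24.9 (2.59, edgeR adjusted p = 9.6e-09). The CDK inhibitors CDKN1C (p57) and CDKN1B (p27) rose by 1.70 and 0.67, while CDKN1A (p21) was at 70.3 and 76.0 CPM in DMSO and 83.5 and 77.0 in Ponatinib and did not pass (0.14, edgeR adjusted p = 0.17), except without Ponatinib replicate 2 (0.19). CCNG2, a cyclin associated with arrest, went from 41.2 and 43.1 CPM to 137 and 154 (1.79, edgeR adjusted p = 3.0e-10).

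Further into the cycle the changes were small. Of 40 DNA replication genes 15 fell (37.5%) and 0 rose, with a median of -0.19, and without DMSO replicate 1 the count was 8. CDC6, a loader of the replicative helicase, fell by 0.56 on the log2 scale and MCM10 by 0.75 (edgeR adjusted p = 2.0e-05 and 2.7e-06). MCM2, a helicase subunit, passed with all samples (-0.24, edgeR adjusted p = 0.0077) and not without DMSO replicate 1 (-0.25) or 2 (-0.23). The polymerase clamp PCNA did not pass (-0.16, edgeR adjusted p = 0.060) but did without Ponatinib replicate 1 (-0.18) or 2 (-0.14). Of 36 mitosis and spindle genes 13 rose (36.1%, against 15% of all genes tested) and 2 fell, and without either DMSO sample 6 rose. The highest, the spindle kinesin KIF20A, was at 271 and 269 CPM in DMSO and 369 and 374 in Ponatinib (0.46, edgeR adjusted p = 2.7e-05). CCNB1 (0.06), PLK1 (0.01), AURKA (0.02) and MKI67 (-0.02), which mark cells in G2 and mitosis or in cycle, did not pass, and MKI67 alone of these did without Ponatinib replicate 2 (-0.11).

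**Figure D3:**
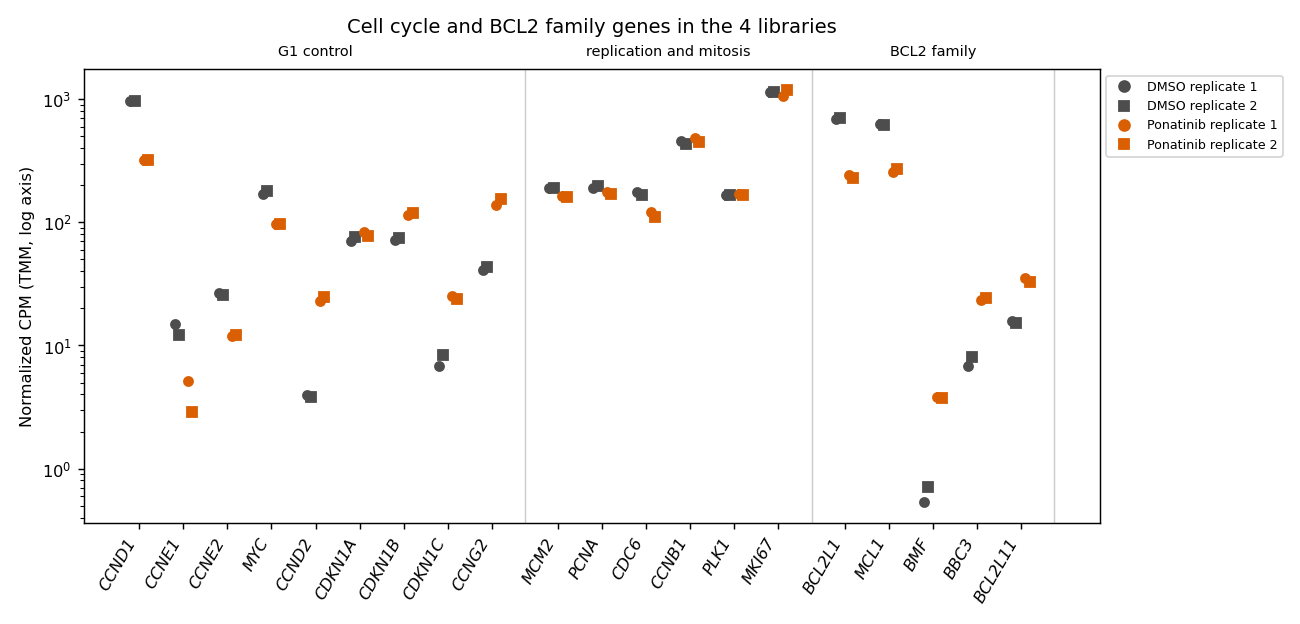
Normalized CPM (log axis) of 20 genes of G1 control, replication and mitosis, and the BCL2 family in the 4 libraries, with DMSO in grey and Ponatinib in orange. CCND1 falls from 971 and 970 to 319 and 318, CCNG2 rises from 41.2 and 43.1 to 137 and 154, PLK1 is level, and BCL2L1 and MCL1 fall while BMF, BBC3 and BCL2L11 rise.

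FOXO transcription factors, which AKT keeps out of the nucleus when growth factors are present, act on arrest, catabolism and redox genes. Of 21 tested genes linked to FOXO or quiescence 14 rose (66.7%) and 1 fell, with a median of 0.72. TXNIP, an inhibitor of glucose uptake, was at 51.1 and 43.5 CPM in DMSO and 130 and 129 in Ponatinib, for a log2 fold change of 1.45 with a standard error of 0.08 (edgeR adjusted p = 3.2e-09). SESN3 went from 8.05 and 9.22 CPM to 21.8 and 28.0 (1.51, edgeR adjusted p = 2.7e-06), and PIK3IP1, which restrains PI3K, from 0.974 and 1.32 to 3.99 and 6.12 (2.11, edgeR adjusted p = 0.00018). Each of these genes was higher in both Ponatinib samples, PIK3IP1 on 11 to 47 counts per library. FOXO1 (1.04) and the receptor ERBB3 (1.45) rose too, while FOXO3 (-0.07) and IRS2 (-0.07, or -0.19 and past the threshold without Ponatinib replicate 2) did not pass.

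In glucose metabolism 5 of 30 genes rose (16.7%, near the 15% of all genes tested) and 9 fell (30.0%), with a median of -0.06. HK2, the inducible hexokinase, was at 66.3 and 64.8 CPM in DMSO and 25 and 27.7 in Ponatinib, for a log2 fold change of -1.32 with a standard error of 0.09 (edgeR adjusted p = 2.7e-08), and the glucose carrier SLC2A1 went from 269 and 264 to 194 and 206 (-0.42, edgeR adjusted p = 0.00012). LDHA, the lactate dehydrogenase, did not pass (-0.03, edgeR adjusted p = 0.71). The monocarboxylate carrier SLC16A1 was at 1.33 and 1.72 CPM in DMSO and 4.66 and 7.29 in Ponatinib (1.93, edgeR adjusted p = 0.00020), and PDK4, which shuts pyruvate out of the citric acid cycle, rose by 1.37. Of 25 respiratory chain genes 1 rose and 1 fell, fewer than the shares of all genes tested. Of 19 hypoxia-regulated genes 5 rose (26.3%) and 6 fell (31.6%). LOX, a collagen cross-linking enzyme, rose by 1.51, ADM fell by 0.55 on the log2 scale and BNIP3 did not pass (-0.07), so that these genes gave no common direction.

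Sterol and fatty acid genes changed at a few control points. Of 29 cholesterol genes 9 rose (31.0%) and 3 fell. SREBF1, the lipogenic transcription factor, was at 63.8 and 73.9 CPM in DMSO and 166 and 166 in Ponatinib, for a log2 fold change of 1.27 with a standard error of 0.07 (edgeR adjusted p = 7.6e-09), and ABCA1, the cholesterol exporter, went from 6.64 and 7.39 to 17.9 and 18 (1.35, edgeR adjusted p = 5.2e-06). SQLE, the squalene epoxidase, did not pass (-0.08, edgeR adjusted p = 0.47). The sterol element letters TCACNCCAC were in 1 of 22 promoters of the list (4.5%) and in 1.4% of those of all genes tested. Of 22 fatty acid genes 8 rose (36.4%) and 3 fell. PPARGC1A, a coactivator of mitochondrial oxidation, went from 7.61 and 8.10 CPM to 32.6 and 34.2 (2.09, edgeR adjusted p = 8.5e-09), ACACB, the acetyl-CoA carboxylase that limits fatty acid oxidation, had a log2 fold change of 1.32, and SCD, the desaturase, 0.66. FASN (-0.13) and ACACA (-0.11), which build the chain, did not pass with all samples and did as lower without Ponatinib replicate 2 (-0.22 and -0.20).

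Of 23 sphingolipid enzymes 3 rose (13.0%, near the 15% of all genes tested) and 9 fell (39.1%, against 15.7%). SPHK1, which makes the signalling lipid sphingosine 1-phosphate, was at 58.9 and 52.9 CPM in DMSO and 14.5 and 17.6 in Ponatinib, for a log2 fold change of -1.82 with a standard error of 0.11 (edgeR adjusted p = 1.0e-08), and UGCG, which makes glucosylceramide, went from 176 and 162 to 99.0 and 103 (-0.74, edgeR adjusted p = 1.1e-06). In retinoid metabolism 13 of 21 genes had counts enough to test, 5 of them rose (38.5%) and 0 fell. The rises of 2 enzymes that reduce retinal, RDH12 and DHRS3, started from almost nothing. RDH12 had 1 and 0 counts in DMSO and 15 and 21 in Ponatinib, which by the ratio of counts is 41.9-fold (95% interval 7.05 to 1699), and DHRS3 had 2 and 1 counts in DMSO and 26 and 24 in Ponatinib, 19.4-fold (6.26 to 97.2). These intervals cover counting error only.

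Of 33 lysosome and autophagy genes 14 rose (42.4%) and 4 fell. Without DMSO replicate 1 the rises numbered 8 and without DMSO replicate 2 they numbered 9. ULK1, the kinase that starts autophagy, was at 45.1 and 48.2 CPM in DMSO and 154 and 173 in Ponatinib, for a log2 fold change of 1.81 with a standard error of 0.08 (edgeR adjusted p = 2.5e-10), and GABARAPL1, which coats the autophagosome, went from 23.7 and 23.1 to 54.0 and 51.0 (1.17, edgeR adjusted p = 1.7e-07). The lysosomal membrane protein LAMP1 did not pass (0.08, edgeR adjusted p = 0.35). The autophagy receptor SQSTM1 was at 432 and 442 CPM in DMSO and 499 and 500 in Ponatinib (0.19, edgeR adjusted p = 0.019), a call lost without DMSO replicate 1 (0.18) or 2 (0.21). Of 24 NRF2 target genes 12 rose and 0 fell. AKR1C1, an aldo-keto reductase, went from 52.6 and 50.8 CPM to 127 and 132 (1.32, edgeR adjusted p = 2.3e-09) and HMOX1, the heme oxygenase, from 11.1 and 13.3 to 26.8 and 22.9 (1.05, edgeR adjusted p = 3.1e-05). NQO1, often used as the reporter of this pathway, was at 617 and 613 CPM against 691 and 646 and did not pass (0.12, edgeR adjusted p = 0.14), except without Ponatinib replicate 2 (0.17). Of 16 clock genes 8 rose and 1 fell. The output factor DBP, a transcription factor of the PAR bZIP family, was at 1.86 and 2.53 CPM in DMSO and 11.8 and 14.6 in Ponatinib (2.58, edgeR adjusted p = 4.9e-07), and its relative TEF went from 8.14 and 5.57 to 15.4 and 16.1 (1.18).

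Survival genes of the BCL2 family fell and several of their antagonists rose. BCL2L1, which encodes BCL-xL and lies on chromosome 20 from 31664452 to 31723989, was at 695 and 702 CPM in DMSO and 245 and 230 in Ponatinib, for a log2 fold change of -1.56 with a standard error of 0.06 (edgeR adjusted p = 8.7e-11). MCL1, another anti-apoptotic member, went from 630 and 617 CPM to 255 and 270 (-1.25, edgeR adjusted p = 1.1e-09). The BH3-only genes moved the other way. BMF had 6 and 7 counts in DMSO and 40 and 29 in Ponatinib (2.60, edgeR adjusted p = 4.5e-05), BBC3, or PUMA, went from 6.82 and 8.00 CPM to 23.4 and 24.1 (1.68, edgeR adjusted p = 3.3e-07) and BCL2L11, or BIM, from 15.8 and 15.1 to 35.2 and 32.9 (1.14, edgeR adjusted p = 1.3e-06). In all 5 genes the groups did not overlap. Over the 14 members tested 3 rose (21.4%) and 6 fell (42.9%), against 15% and 15.7% of all genes tested. The 6 include the effectors BAX (-0.40) and BAK1 (-0.33), so the falls were not confined to anti-apoptotic members. BAK1 did not pass without DMSO replicate 1 (-0.32), nor with DESeq2's Wald test on all samples (-0.33). Of 19 p53 target genes 7 rose (36.8%) and 3 fell (15.8%, near the 15.7% of all genes tested). TP53INP1 and PHLDA3 rose by 1.51 and 1.20. MDM2 passed with 0.22 but not without DMSO replicate 1 (0.28), DMSO replicate 2 (0.17) or Ponatinib replicate 2 (0.15). It also did not pass with DESeq2's Wald test on all samples (0.23). AEN, an apoptosis-enhancing nuclease, was at 74.0 and 78.4 CPM in DMSO and 13.0 and 14.1 in Ponatinib (-2.50, edgeR adjusted p = 7.8e-11).

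The interleukins and colony stimulating factors that LM2 cells expressed were for the most part lower in Ponatinib. Of 27 listed genes 17 had counts enough to test, 9 fell (52.9%, against 15.7% of all genes tested), 8 of them by more than 2-fold, and 3 rose, with a median log2 fold change of -0.78. With at least 10 counts required in every sample, 5 fell. IL1B, the inflammasome-processed interleukin on chromosome 2 from 112829751 to 112836816, was at 50.4 and 52.9 CPM in DMSO and 4.47 and 2.73 in Ponatinib, for a log2 fold change of -3.79 with a standard error of 0.15 (edgeR adjusted p = 1.1e-10). CSF3, or G-CSF, the neutrophil growth factor on chromosome 17 from 40015361 to 40017813, went from 91.4 and 90.5 CPM to 7.70 and 9.24 (-3.44, standard error 0.10, edgeR adjusted p = 9.6e-12). Both genes were low in both Ponatinib samples, with a gap between the groups many times the spread within them. IL11, a bone-active cytokine, was at 80.1 and 82.2 CPM in DMSO and 15.2 and 14.7 in Ponatinib (-2.44, edgeR adjusted p = 5.8e-11), and LIF, its relative, at 85.7 and 90.4 against 31.3 and 34.1 (-1.43, edgeR adjusted p = 5.0e-09). CSF2, or GM-CSF, had 52 and 68 counts in DMSO and 10 and 1 in Ponatinib (-3.21, edgeR adjusted p = 5.1e-05). IL6, of the same receptor family as IL11 and LIF, did not pass, with 7.52 and 8.41 CPM in DMSO and 8.18 and 7.29 in Ponatinib (-0.03, edgeR adjusted p = 0.92), and CSF1, the macrophage growth factor, rose from 107 and 122 to 202 and 202 (0.83, edgeR adjusted p = 4.7e-07).

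Only 7 of 20 chemokines were high enough to test, of which 3 rose (42.9%) and 2 fell (28.6%). CXCL8, which attracts neutrophils, was at 25.8 and 31.0 CPM in DMSO and 5.61 and 6.12 in Ponatinib, for a log2 fold change of -2.28 with a standard error of 0.15 (edgeR adjusted p = 3.2e-08), and CXCL1 went from 10.6 and 9.42 to 2.95 and 3.51 (-1.65, edgeR adjusted p = 2.1e-05). CX3CL1 had 5 and 3 counts in DMSO and 11 and 13 in Ponatinib (1.77, edgeR adjusted p = 0.018) and did not pass without DMSO replicate 1 (2.08), DMSO replicate 2 (1.56) or Ponatinib replicate 2 (1.44). Among 22 cytokine receptors 4 rose (18.2%) and 3 fell (13.6%), near the 15% and 15.7% of all genes tested. IL1R1 (-0.18) and IL6R (0.33) did not pass. Of 18 NF-kB subunits and feedback genes 4 rose and 8 fell, a count of 5 without DMSO replicate 2. The inhibitor NFKBIA was at 58.9 and 61.7 CPM in DMSO and 99.3 and 93.8 in Ponatinib (0.68, edgeR adjusted p = 3.6e-06), and the adhesion molecule VCAM1 went from 4.07 and 4.35 to 15 and 12.4 (1.71, edgeR adjusted p = 4.1e-06), while the subunit NFKB1 fell by 0.67 on the log2 scale and TNFAIP3 did not pass (-0.38, edgeR adjusted p = 0.059), except without DMSO replicate 1 (-0.53) or Ponatinib replicate 2 (-0.45).

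**Figure D4:**
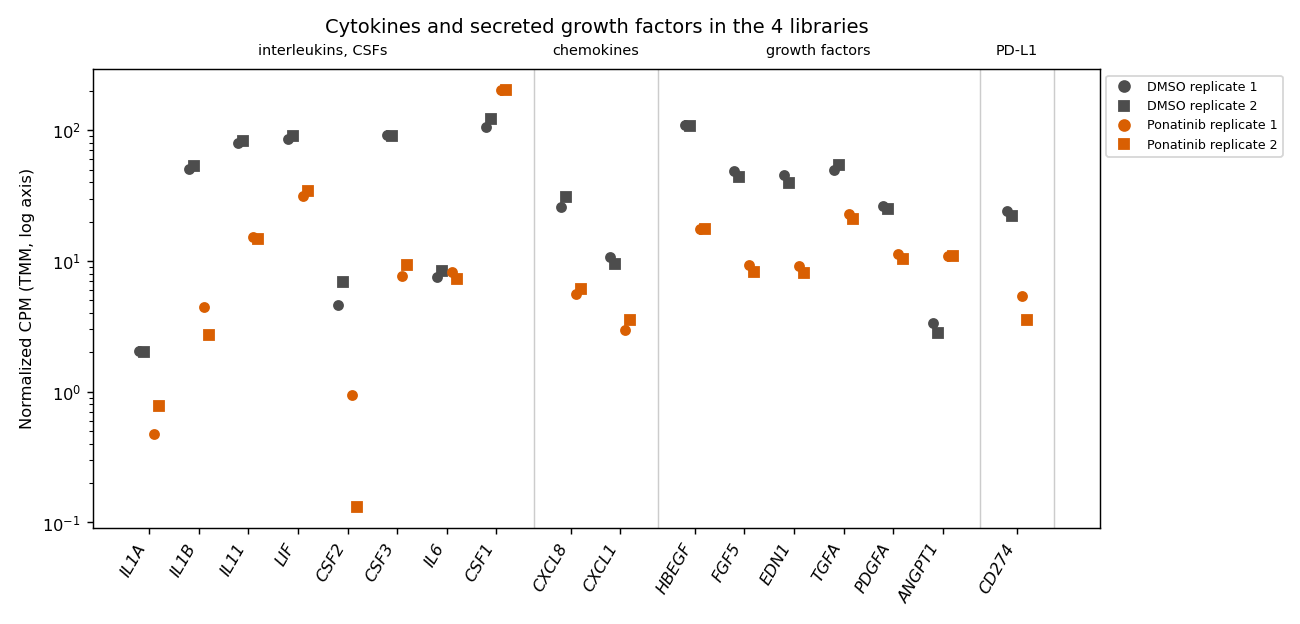
Normalized CPM (log axis) of 8 interleukins and colony stimulating factors, 2 chemokines, 6 growth factors and CD274 (PD-L1) in the 4 libraries, with DMSO in grey and Ponatinib in orange. IL1B falls from 50.4 and 52.9 to 4.47 and 2.73 and CSF3 from 91.4 and 90.5 to 7.70 and 9.24, IL6 overlaps between the groups, and CSF1 and ANGPT1 rise.

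Secreted growth factors fell more often than they rose, in 12 of 21 genes tested (57.1%) against 6, with a median of -0.64. HBEGF, a ligand of the EGF receptor, was at 110 and 107 CPM in DMSO and 17.4 and 17.6 in Ponatinib, for a log2 fold change of -2.64 with a standard error of 0.08 (edgeR adjusted p = 1.4e-11). FGF5 went from 49.1 and 43.9 CPM to 9.32 and 8.20 (-2.40, edgeR adjusted p = 1.7e-09) and EDN1, the vasoconstrictor endothelin, from 45.4 and 39.2 to 9.22 and 8.07 (-2.28, edgeR adjusted p = 4.9e-09). These 3 genes were low in both Ponatinib samples without overlap. The EGF receptor ligands TGFA, EREG and AREG fell by 1.22, 0.89 and 0.82 on the log2 scale, and PDGFA by 1.24. ANGPT1, a ligand of the endothelial receptor TEK, was at 3.36 and 2.84 CPM in DMSO and 10.9 and 10.9 in Ponatinib (1.81, edgeR adjusted p = 5.2e-06), and KITLG rose by 0.92. Of 18 TGF-beta family genes tested 5 rose (27.8%) and 4 fell (22.2%). FST, the activin antagonist, was among those that fell, from 71.9 and 70.0 CPM to 28.2 and 22.8 (-1.46, edgeR adjusted p = 2.6e-08).

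Of 34 interferon-stimulated genes 14 rose (41.2%, against 15%) and 2 fell, with a median of 0.29, and without DMSO replicate 2 the rises numbered 9. IFIT1, which binds foreign RNA caps, was at 29.5 and 30.5 CPM in DMSO and 83.5 and 83.4 in Ponatinib, for a log2 fold change of 1.48 with a standard error of 0.08 (edgeR adjusted p = 2.5e-09), and IFIT2 went from 39.0 and 37.5 to 82.5 and 86.8 (1.14, edgeR adjusted p = 3.1e-08). XAF1 had 29 and 20 counts in DMSO and 84 and 84 in Ponatinib (2.00, edgeR adjusted p = 1.6e-05), and the RNA sensor IFIH1 rose by 1.02. ISG15, a widely used reporter of the interferon response, did not pass (-0.06, edgeR adjusted p = 0.75), and the RNA sensor RIGI fell by 0.33 on the log2 scale. Of 16 genes of class I antigen presentation, CD274 counted among them, 3 rose (18.8%) and 2 fell (12.5%), near the shares of all genes tested. B2M, the light chain of class I molecules, was at 0.16 and did not pass, except without Ponatinib replicate 2 (0.25). CD274, which encodes the checkpoint ligand PD-L1, was at 24.0 and 22.2 CPM in DMSO and 5.42 and 3.51 in Ponatinib (-2.33, edgeR adjusted p = 1.1e-07), counts of 219 to 271 against 27 to 57.

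Among kinases that Ponatinib is known to bind, 18 of 27 were tested, 5 rose (27.8%) and 3 fell (16.7%). Of all genes tested 15% rose and 15.7% fell. EPHA2, an ephrin receptor, was at 473 and 488 CPM in DMSO and 121 and 128 in Ponatinib, for a log2 fold change of -1.94 with a standard error of 0.06 (edgeR adjusted p = 1.6e-11), and PDGFRB had 17 and 23 counts in DMSO and 55 and 46 in Ponatinib (1.55, edgeR adjusted p = 0.00046). FGFR1 did not pass (-0.01, edgeR adjusted p = 0.96). Of 13 Wnt genes tested 2 rose (15.4%) and 7 fell (53.8%). The ligand WNT9A went from 3.63 and 3.75 CPM to 21.9 and 22.5 (2.58, edgeR adjusted p = 1.1e-08), while the receptor FZD8 fell by 1.95 and the secreted antagonist DKK1 by 1.09 on the log2 scale. Of 13 Notch genes tested 4 rose (30.8%) and 3 fell (23.1%). The ligand JAG1 was at 171 and 178 CPM in DMSO and 66.4 and 76.3 in Ponatinib (-1.30, edgeR adjusted p = 6.3e-09) and the ligand JAG2 at 6.20 and 7.19 against 15 and 15.7 (1.20, edgeR adjusted p = 3.2e-05), so the pair moved in opposite directions. HES1, a target of the pathway, fell by 0.83. Of 8 histone genes tested 3 rose and 0 fell, and of 12 keratins and keratin-associated proteins 3 rose and 3 fell.

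The largest rises in fold included genes that were close to silent in DMSO. KLHDC7B, a kelch domain gene on chromosome 22 from 50545899 to 50551023, had 0 and 1 counts in DMSO and 34 and 29 in Ponatinib, 73.3-fold by the ratio of counts (95% interval 12.7 to 2939 for counting error only, edgeR adjusted p = 4.5e-06). MAP2K6, the p38-activating kinase MKK6 on chromosome 17 from 69414697 to 69553865, had 9 and 15 counts in DMSO and 213 and 190 in Ponatinib, for a log2 fold change of 4.28 with a standard error of 0.24 (edgeR adjusted p = 4.3e-09). Both genes were low in both DMSO samples and had at least 20 counts in each Ponatinib sample, which follows from how the largest rises were chosen. Transcription factors were among these rises, with MAF at 8 and 4 counts against 61 and 56 (3.48), ATOH8 at 1.68 and 2.23 CPM against 20.6 and 20.8 (3.41) and ELF3 at 0.885 and 1.32 CPM against 9.60 and 8.20 (3.03). DIO2, which activates thyroid hormone, rose by 3.39, SYNPO2, an actin-binding protein, by 3.30 and GABRG1, a GABA receptor subunit counted 6 and 1 times in DMSO and 39 and 27 times in Ponatinib, by 3.41. TSC22D3, the leucine zipper protein GILZ known as a glucocorticoid and FOXO target, was better counted, with 12 and 13.3 CPM in DMSO and 103 and 87.7 in Ponatinib (2.92, standard error 0.11, edgeR adjusted p = 5.0e-11). INHBE, DHRS3, CTH and DDIT4, given above, belong to the same 15 largest rises, as do ENSG00000267194.1 (4.16) and ENSG00000223414.2 (2.91), for which only identifiers were at hand.

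Among genes over 2-fold, the largest rises by the difference in normalized CPM were those of PSAT1 and DDIT4, followed by NEAT1, a nuclear long non-coding RNA that went from 201 and 214 CPM to 481 and 481 (log2 fold change 1.21, edgeR adjusted p = 1.6e-09), GARS1, and PEG10, an imprinted retrotransposon-derived gene, from 183 and 175 to 410 and 484 (1.32, edgeR adjusted p = 6.3e-09). MKNK2, a kinase of the initiation factor eIF4E, went from 98.7 and 110 CPM to 229 and 249 (1.19, edgeR adjusted p = 1.0e-08). Of the 10 largest rises on this scale among genes over 2-fold, 5 (PSAT1, DDIT4, GARS1, ASNS and TRIB3) belong to the amino acid lists.

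At the other end, KRTAP2-3 on chromosome 17 from 41059240 to 41060114 had 85 and 65 counts in DMSO and 4 and 1 in Ponatinib, 25.8-fold lower by the ratio of counts (95% interval 10.8 to 80.6). Its family member KRTAP2-4, on the same chromosome from 41065116 to 41065879, had 17 and 11 counts in DMSO and 0 in both Ponatinib samples, at least 8.03-fold lower against 3 counts over the group, and the counting could have split reads between these copies. GPR3, a receptor that raises cAMP, had 91 and 99 counts in DMSO and 11 and 2 in Ponatinib (-3.64, edgeR adjusted p = 1.4e-06). SPRY4, DUSP5 and DUSP6, feedback genes of ERK signalling, and CCN2, a YAP target, also belong to the 15 largest falls, with log2 fold changes of -3.47, -3.08, -2.56 and -2.92, as do MAFF (-2.81), ANGPTL4 (-2.58), CDC42EP2 (-2.53) and FOS (-2.75, on 51 and 45 counts in DMSO and 4 and 8 in Ponatinib). Among genes over 2-fold, the largest fall by the difference in normalized CPM was of CCN1, from 1276 and 1260 to 432 and 408 (-1.59), followed by CCND1 and BCL2L1.

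**Figure D5:**
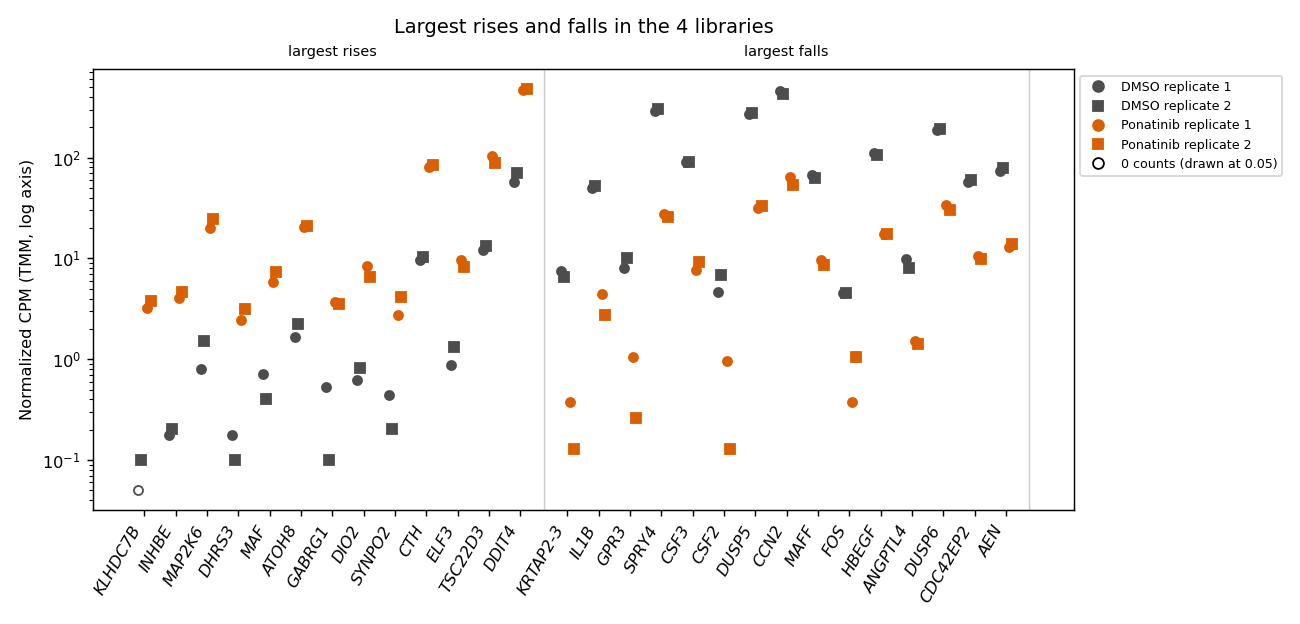
Normalized CPM (log axis) of the genes with the largest rises and falls that have a symbol (13 and 15 genes) in the 4 libraries, with DMSO in grey and Ponatinib in orange, and an open symbol marks 0 counts. MAP2K6 goes from 9 and 15 counts to 213 and 190 and IL1B from 569 and 522 to 47 and 21. The genes drawn were picked for their large change, so the gap between the 2 groups follows from that choice.

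Levels of 5 of these genes, chosen after their values were seen, are set beside those in the shRNA samples, which have no replicates and differ from the DMSO samples in more than the shRNA, so no comparison was made between the experiments. The header cells inside the files of the scrambled control and of the ABL1 shRNA are exchanged relative to the labels, so that which of these samples is the control is in doubt, and no direction is read from them. CSF3 was at 181 CPM in the sample labelled as scrambled control (95% Wilson interval 174 to 189), 337 in the one labelled ABL1 shRNA (327 to 347), 370 in the one labelled ABL2 shRNA (359 to 381) and 262 in the sample that carried both (253 to 272). IL1B was at 186 CPM (178 to 194), 211 (203 to 219), 271 (262 to 280) and 181 (173 to 188) in the same order. DDIT4 was at 242 CPM (233 to 251), 266 (257 to 275), 267 (258 to 276) and 263 (254 to 273). ASNS was at 42.5 CPM (38.9 to 46.4), 65.6 (61.3 to 70.1), 59.6 (55.5 to 64.1) and 49.9 (46.0 to 54.0). CTH was at 6.89 (5.54 to 8.57), 12.4 (10.6 to 14.4), 9.15 (7.62 to 11.0) and 7.82 (6.39 to 9.57). The intervals cover counting error only.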

How the data were processed

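RNA of LM2 cells was sequenced on an Illumina HiSeq. The authors mapped reads to hg38 with Bowtie/TopHat and deposited raw read counts per gene, made with HTSeq 0.6.0 per the labels, 1 file per sample for 58688 Ensembl genes. The strand setting of the counting is not given in the sources used here, so genes that overlap on opposite strands may share counts. Symbols and positions came from GENCODE on GRCh38, with 54836 identifiers matched after their version was removed. From the counts, edgeR 4.0.16 in R 4.3.3 gave TMM-normalized CPM and quasi-likelihood tests on the 4 DMSO and Ponatinib samples (filterByExpr, prior count 0.125, Benjamini-Hochberg adjustment over 16031 genes, 2 residual degrees of freedom). Standard errors are the log2 fold change divided by the root of F. The study's thresholds, a fold over 2 and an unadjusted P under 0.05, were an alternative.

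The comparison's description, the 43 gene lists (952 genes, 828 tested, 3 without a matched identifier) and the motifs were chosen with earlier results of these data known. Genes named are the 15 largest rises and falls in fold (at least 20 counts in each sample of the higher group) and the 10 largest of each in CPM, all among genes over 2-fold, core genes of each list and up to 6 members over 2-fold per list; further members named as examples were chosen after their values were seen. Promoter windows came from RefSeq on GRCh38.p14. Replicates had Pearson correlations of log2 CPM of 0.996 (DMSO) and 0.993 (Ponatinib) over 14715 genes. A chi-square of their counts gave 1.44 and 3.12 for each degree of freedom, more than counting error alone. Whether the replicates were separate libraries or cultures cannot be told from these values. The precision of low genes is set by depth, since 3 counts are at most 0.396 CPM. The scripts were tested on simulated data. Alternatives were DESeq2 1.42.0 (its size factors and its Wald test), other filters, a prior count of 2, the replicate block and leaving out each sample. In the shRNA files the header cells of the shCtrl and ABL1 samples are exchanged relative to the labels, which were followed. The values of some list members are not reported here.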

Additional observations from a re-analysis of the deposited data

How the results depend on the processing

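The 774 genes over 2-fold (448 up, 326 down) became 878 (511 up, 367 down) with the unadjusted p, 521 (302 up, 219 down) with DESeq2's Wald test, 548 (319 up, 229 down) with 10 counts required in every sample, and 874 (491 up, 383 down) with no filter. Repeat numbers are shared by the labels of both groups, but same-numbered samples did not deviate together (r = 0.03 over 14715 genes, which are not independent). Whether same-numbered samples were made together is not given by the labels and was not tested. The replicate block gave 803 genes (467 up, 336 down) and changed none of the calls of the 250 genes examined. Of these, 208 passed, and DESeq2's Wald test, leaving out genes to which it gave no adjusted p, lost 11. Leaving out one sample moved the falls of snoRNA host genes between 5 and 14, of heat shock genes between 6 and 11, of DNA replication genes between 8 and 20 and of NF-kB genes between 5 and 9, and the rises of mitosis genes between 6 and 17, of interferon-stimulated genes between 9 and 14 and of lysosome genes between 8 and 17. With 10 counts required in every sample, 5 interleukins and colony stimulating factors fell in place of 9, since fewer were tested. Of 20 list counts followed, 12 were moved past 1.5 times by none of the alternatives. Without DMSO replicate 1, DMSO replicate 2, Ponatinib replicate 1 or Ponatinib replicate 2, 20, 18, 4 and 4 of the genes examined lost their call and 1, 0, 5 and 12 gained one. A fit without 1 sample assumes that the lone sample varies like the other group.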
